A study of Mus musculus with 12 samples.

Results

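The regions described here are m1A peaks whose summit, the base of highest pull-down coverage, lay in no gene span of any kind in RefSeq's GRCm38.p6 table. They were taken from 6 peak lists on chromosomes 1 to 19, and peaks that shared at least 1 bp were merged across the lists. Of 22667 peaks, 1687 (7.44%) had such a summit, and they formed 1084 of the 13137 merged regions. The other 12053 regions had every summit inside a gene and served as the comparison. Position alone chose the members, so peak strength, length, recurrence and distance were free to vary among them. A peak could have its summit outside a gene and still overlap it, which was the case for 3.03% (KO 2) to 18.9% (control 3) of the outside peaks of a library.

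N1-methyladenosine (m1A) is adenosine with a methyl group on the Watson-Crick face of the base. It is best known from transfer RNA, where it sits in the T loop and stabilises the fold, from large-subunit ribosomal RNA, and from mitochondrial RNAs, and mapping studies have also placed it near the start of some messenger RNAs. The enzyme removed in this study was TET1, whose usual substrate is methylated cytosine in DNA. Mammalian cells also make RNA outside annotated genes, among other places upstream of promoters, at enhancers and past the 3′ ends of genes.

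All mice were adult male Tet1 fl/fl animals, and the caudate putamen, the dorsal striatum, was dissected 2 weeks after stereotaxic virus injection. The control group (3 pull-down libraries) received AAV-EGFP and kept Tet1, while the knockout (KO) group (3 pull-down libraries) received AAV-Cre-EGFP. Dissected tissue holds cells the virus did not reach, and the promoter that drove Cre is not given in the sources used here. Each pull-down had its own input library, which entered only through the authors' peak calling. Whether the numbered libraries were made from different animals is not stated in the labels, so a p-value here measures the spread among libraries alone, and that spread may be technical.

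Depth differed between the groups and 2 libraries stood apart. The caller used 459332 to 1097292 pull-down tags per control library and 1235247 to 2508102 per KO library, so every KO library was deeper. Control 1 was the shallowest and the only one called with all duplicate tags kept, and KO 2 was the deepest. Absence from a list means that no peak was called with those tags, and leaves the presence of m1A unknown. In the check of the tissue label, 8 of 10 medium spiny neuron markers held a peak in at least 1 library, and Ppp1r1b, Pde10a and Adcy5 did so in all 6. Drd1 and Tac1 held none. The cortical marker Slc17a7 and the oligodendrocyte marker Mbp also held a peak in all 6, while 1 of 4 microglial markers held any.

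The promoters that could be matched show what lay beneath the outside regions closest to genes. A RefSeq table of GRCm38.p6 promoters, each from 250 bases before to 50 bases after a transcription start, held 33 windows with an outside summit. Those of Pgbd5, Insyn1 and Ppp1r9b are printed because the region was called in all 6 libraries. That of Rasd2 is printed because the gene belongs to the striatal list, and that of Isg20 as an example of a region called in the 3 KO libraries alone. Each is written 5′ to 3′ along the gene, and the capitals mark the bases within 25 of the median of the outside summits that fell inside the window, as far as the window reaches. Elsewhere, a region's distance from a gene is that of its outside summit of highest fold enrichment, so the 2 positions can differ.
Pgbd5, chr8:124433887-124434186, minus strand: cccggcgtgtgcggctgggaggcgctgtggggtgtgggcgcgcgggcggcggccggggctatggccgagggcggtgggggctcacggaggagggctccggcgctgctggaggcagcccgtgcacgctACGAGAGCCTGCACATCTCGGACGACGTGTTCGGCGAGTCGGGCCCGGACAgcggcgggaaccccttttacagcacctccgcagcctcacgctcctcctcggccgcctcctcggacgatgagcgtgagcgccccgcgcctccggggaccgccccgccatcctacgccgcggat
Insyn1, chr9:58488353-58488652, plus strand: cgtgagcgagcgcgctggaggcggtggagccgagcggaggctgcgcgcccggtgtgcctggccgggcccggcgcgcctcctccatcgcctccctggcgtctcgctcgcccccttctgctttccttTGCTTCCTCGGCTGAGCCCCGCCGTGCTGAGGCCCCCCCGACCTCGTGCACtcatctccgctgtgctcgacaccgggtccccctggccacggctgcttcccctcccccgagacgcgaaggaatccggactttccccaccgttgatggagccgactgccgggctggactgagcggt
Ppp1r9b, chr11:94990962-94991261, plus strand: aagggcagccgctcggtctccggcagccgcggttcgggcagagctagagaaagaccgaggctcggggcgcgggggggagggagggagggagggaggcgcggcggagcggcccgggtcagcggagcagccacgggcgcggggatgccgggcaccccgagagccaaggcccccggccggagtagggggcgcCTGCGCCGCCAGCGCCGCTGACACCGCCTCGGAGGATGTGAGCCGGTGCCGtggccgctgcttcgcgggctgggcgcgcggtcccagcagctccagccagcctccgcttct
Rasd2, chr8:75213694-75213993, plus strand: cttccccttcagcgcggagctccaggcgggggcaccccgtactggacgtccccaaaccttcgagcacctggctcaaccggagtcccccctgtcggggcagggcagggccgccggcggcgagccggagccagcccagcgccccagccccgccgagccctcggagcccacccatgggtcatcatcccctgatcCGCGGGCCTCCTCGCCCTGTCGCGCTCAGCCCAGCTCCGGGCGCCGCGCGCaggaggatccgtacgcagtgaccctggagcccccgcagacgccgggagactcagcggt
Isg20, chr7:78913174-78913473, plus strand: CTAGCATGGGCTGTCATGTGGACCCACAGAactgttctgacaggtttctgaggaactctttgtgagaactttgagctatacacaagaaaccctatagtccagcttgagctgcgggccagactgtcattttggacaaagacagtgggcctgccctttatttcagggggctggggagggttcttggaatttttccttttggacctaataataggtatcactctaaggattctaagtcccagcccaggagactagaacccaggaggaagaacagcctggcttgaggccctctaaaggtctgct
The capitals were centred 98, 100, 36 and 34 bases before the start for Pgbd5, Insyn1, Ppp1r9b and Rasd2, and 246 bases before it for Isg20. They rest on summits of 6, 5, 6, 2 and 1 libraries in that order, and the strongest Rasd2 summit lay 501 bp before the gene, beyond the window. The first 4 windows were rich in G and C, at 75.3%, 72.3%, 77.3% and 74.7%, and the Isg20 window was not, at 49.3%. The window of Gm52298, not printed, was at 76.3% and held summits of 3 libraries. Its region was also called in the 3 KO libraries alone, so the low value of Isg20 does not stand for that class. Over the 33 windows the median was 71.7%, against 53% over all 31396 windows of the table. The hexamer GTTCGA, the T-loop core of a transfer RNA that ends in the adenosine methylated there, was sought on both strands and stood in 3 of the 33 windows (9.09%), those of Zfp768, BC005624 and Spred1, and in 2.52% of all windows. Its variant GTTCAA stood in none of the 33 and in 9.33% of all. The regions with GTTCGA were called in 2 libraries at Zfp768 and in 1 each at BC005624 and Spred1. Only at Spred1 did the hexamer lie within 25 bases of the median summit. The 33 windows were richer in G and C than all windows, so these shares are not compared like for like. A match is a description of the letters and not a modified site.

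MicroRNA (miRNA) genes were the nearest gene for 23 regions, 7 of them within 1 kb. The mature sequences of Mir212 (chromosome 11) and Mir137 (chromosome 3), short RNAs enriched in neurons that repress target messengers, are printed because their regions were the ones of these 7 called in more than 1 library. Capitals mark the seed, bases 2 to 8, and no seed was shared among the 4.
mmu-miR-212-5p: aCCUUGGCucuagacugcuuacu
mmu-miR-212-3p: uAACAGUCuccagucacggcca
mmu-miR-137-5p: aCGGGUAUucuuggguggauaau
mmu-miR-137-3p: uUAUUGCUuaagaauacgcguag
The region chr11:75172637-75173080 had its summit 423 bp from Mir212, and its fold enrichment over the local background, the authors' own value for a peak, was 7.48 in control 2, 7.30 in control 3, 7.02 in KO 1 and 6.18 in KO 2. Near Mir137, chr3:118434210-118434461 was called in control 2 (6.42) and KO 2 (6.55), with the summit 399 bp away. Neither region reached the mature sequences.

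Between genotypes, the outside peaks took a share of each list that ran from 4.35% to 8.87%. The share was 7.94%, 5.37% and 4.35% in controls 1, 2 and 3, and 8.55%, 8.87% and 7.72% in KO 1, 2 and 3. Controls 2 and 3 were below every KO library, and control 1 lay among them. The mean was 8.38% ± 0.593 (SD, n = 3) in KO and 5.89% ± 1.85 (SD, n = 3) in control, a difference of 2.49 percentage points with an exact two-sided permutation p of 0.2. With 3 libraries a group the smallest p that this test can give is 0.1, so it could not pass 0.05. Without control 1 the difference was 3.52 points and the groups did not overlap, and with lists of equal length it was 1.66 points.

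Counts of outside peaks moved with the length of the lists. There were 243, 179 and 127 in controls 1, 2 and 3, and 313, 595 and 230 in KO 1, 2 and 3, and the groups overlapped only through control 1. Per 100000 pull-down tags used, the count was 52.9, 16.3 and 14.7 in the controls and 25.3, 23.7 and 17.2 in the KO libraries. On that scale the KO mean was the lower, at 22.1 against 28.0 in control. Control 1 was highest, controls 2 and 3 were below every KO library, and the groups overlapped (exact permutation p = 1, two-sided). With lists of equal length the difference in number fell from 196 to 48.3, and without KO 2 it was 88.5. The part of the duplicate setting was not tested.

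**Figure D1:**
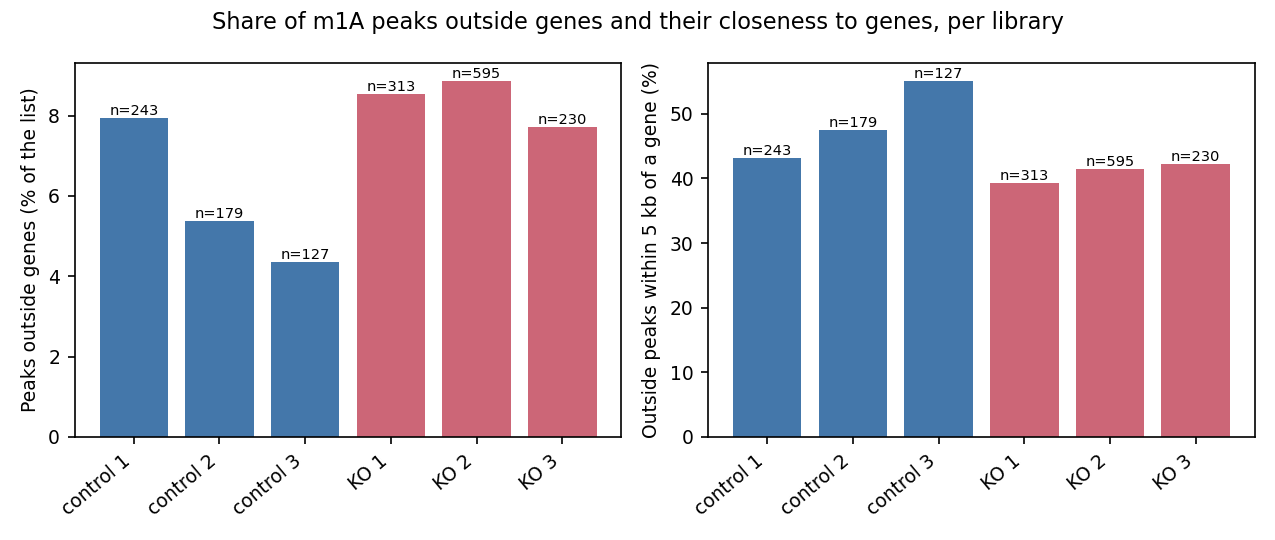
Left, peaks with their summit outside genes as a percent of each library's list on chromosomes 1 to 19; right, the percent of those outside peaks within 5 kb of a gene. Bars are single libraries (blue control, red KO) with the number of outside peaks above them; controls 2 and 3 are lowest on the left at 5.37% and 4.35%, and on the right all 3 controls stand above all 3 KO libraries.

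Outside peaks in KO tissue had the larger median distance to a gene, a difference that the design is too small to test at 0.05. The median distance from summit to the nearest gene edge was 6601, 5931 and 2685 bp in controls 1, 2 and 3, and 8580, 7258 and 7095.5 bp in KO 1, 2 and 3. All 3 KO medians were above all 3 control medians, with means of 7644.5 ± 814 bp (SD, n = 3) and 5072 ± 2094 bp (SD, n = 3) and the smallest exact permutation p possible, 0.1 (two-sided). The share within 5 kb of a gene was 43.2%, 47.5% and 55.1% in the controls and 39.3%, 41.5% and 42.2% in the KO libraries. Again the groups did not overlap, and KO was lower by 7.61 points (exact permutation p = 0.1, two-sided), or by 4.35 points without control 3. The groups did overlap with lists of equal length, where KO minus control was −5.29 points (exact permutation p = 0.3, two-sided). They also overlapped at −log10 q of at least 5, where it was −4.48 points (exact permutation p = 0.6, two-sided). Within 1 kb the groups overlapped, with 19.8% ± 3.05 (SD, n = 3) in KO and 28.7% ± 9.02 (SD, n = 3) in control (exact permutation p = 0.3, two-sided). Over the 13 measures compared between genotypes, the lowest adjusted p was 0.557 (Benjamini-Hochberg over exact permutation tests).

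A larger share of outside summits than of outside bases lay near genes, in each of the 6 libraries. Bases outside every gene span made up 51.3% of the sequence between the outermost genes of the chromosomes, and 19.4% of those bases were within 5 kb of a gene, 4.77% within 1 kb and 1.02% within 200 bp. Of the 1687 outside peaks, 152 (9.01%) were under 200 bp from a gene, 209 (12.4%) between 200 bp and 1 kb, 366 (21.7%) between 1 and 5 kb, 538 (31.9%) between 5 and 20 kb, and 77 (4.56%) over 100 kb away. The farthest summit was 524870 bp from any gene, in KO 1. Overlap with another library, by at least 1 bp, held for 71.1% of pooled peaks under 200 bp away, 58.4% of those from 200 bp to 1 kb and 46.8% to 54.2% in the bins beyond. The bin under 200 bp was the highest in control 1, control 2 and KO 2 but not in the other 3 libraries, and in control 3 it was the lowest, at 65.4%.

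The side of the gene changed with distance. Among regions under 200 bp from the nearest gene, 36 lay before its 5′ end and 6 past its 3′ end. From 1 to 5 kb the counts were 63 and 100, and from 5 to 20 kb 82 and 131. Strand came from the promoter table, which left the side unknown for 38, 87 and 137 regions of these bins. The side was also counted library by library for peaks within 1 kb of a protein-coding gene. Controls 1, 2 and 3 had 14, 19 and 24 on the 5′ side and 5, 5 and 2 on the 3′ side, and KO 1, 2 and 3 had 25, 22 and 21 against 7, 22 and 5. The 5′ side led in 5 of 6 libraries, with equal counts in KO 2, by a mean of 13.2 peaks (SD 7.76, n = 6, exact sign-flip permutation p = 0.0625, adjusted p = 0.188 over 6 within-library measures).

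**Figure D2:**
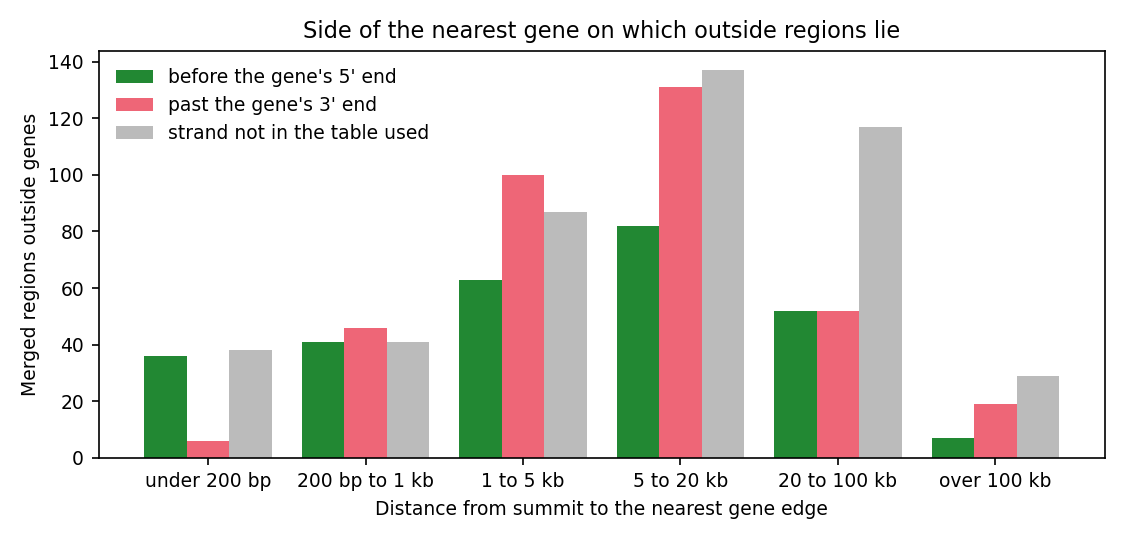
Number of merged outside regions by distance from the summit of highest fold enrichment to the nearest gene edge (x axis) and by side of that gene (green 5′, red 3′, grey strand not in the table used). Under 200 bp the 5′ side leads with 36 regions against 6; from 1 to 20 kb the 3′ side is the larger.

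Within each library, outside peaks resembled peaks inside genes in strength and length but had lower coverage. The median fold enrichment outside was 3.84 in control 1, 7.27 in control 2, 7.42 in control 3, 7.22 in KO 1, 7.43 in KO 2 and 8.36 in KO 3. Inside genes it was 4.65, 7.15, 7.15, 7.18, 7.15 and 7.51 in the same order. Outside peaks had the higher median in 5 of 6 libraries, by 0.122 on average, with control 1 going the other way (SD 0.538, n = 6, exact sign-flip permutation p = 0.531, two-sided). In control 1, 76.1% of outside peaks had its shortest length, and the lower quartile of their fold equalled the median. Without control 1 the difference was 0.309 (exact sign-flip permutation p = 0.0625, the smallest possible with 5 libraries), and without KO 3 it was −0.022. Median peak length was 201 bp outside and 206 bp inside on average over libraries (exact sign-flip permutation p = 0.25, n = 6). The pileup, the authors' tag coverage at the summit, had a median of 3, 11, 13, 9, 11 and 12 outside against 4, 19, 18, 17, 18 and 20 inside. It was lower outside in 6 of 6 libraries, by 6.17 on average (SD 2.79, n = 6, exact sign-flip permutation p = 0.03125, the smallest possible), and its adjusted p over the 6 measures was 0.188.

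Recurrence outside genes differed by class of region. Of the 1084 regions, 784 (72.3%) were called in a single library, against 68.6% of regions inside genes and 68.9% of all regions. KO 2 alone accounted for 416 of them and control 1 for 174. All 6 libraries called 23 regions (2.12%), against 3.00% inside genes and 2.95% of all regions. The class found in each of the 3 KO libraries but in no control numbered 34 (3.14%), against 1.30% inside genes and 1.45% of all. The reverse class, all 3 controls and no KO library, held 18 (1.66%), against 0.730% inside and 0.807% of all. Both classes restricted to 1 genotype therefore took a larger share outside genes than over all regions, as described by these counts without a test. Regions called in any KO library and no control made up 62.9% outside and 50.7% inside genes, and those called in both genotypes 13.9% and 21.4%.

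These classes were sensitive to which libraries were counted. Without KO 2 the regions of all remaining KO libraries and no control numbered 77, and without KO 3 they numbered 62. With lists cut to 2918 peaks each they numbered 18. Without control 1, 36 regions were called in all remaining libraries. A peak was shared with another library in 62.6% of cases outside and 64.6% inside genes on average, a difference of −2.04 points (n = 6, exact sign-flip permutation p = 0.312).

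**Figure D3:**
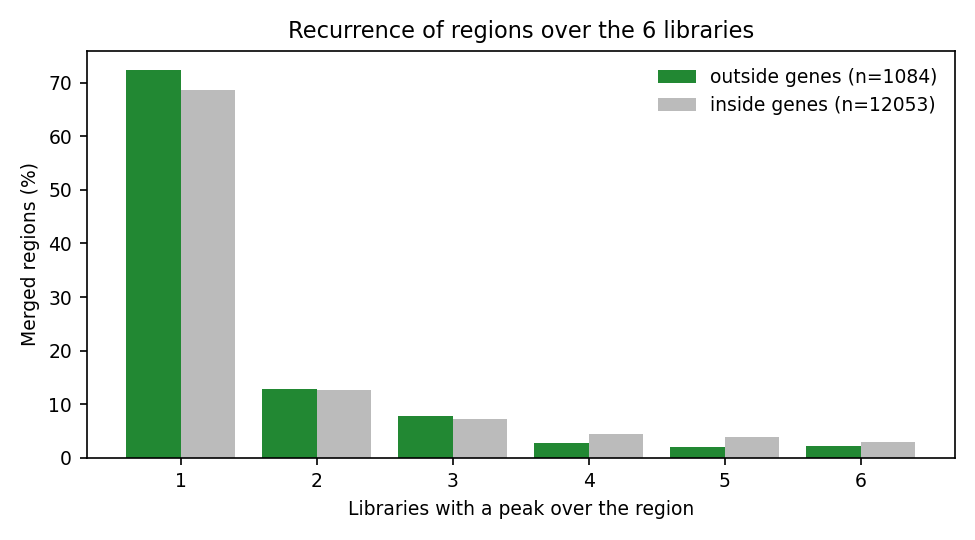
Percent of merged regions (y axis) called in 1 to 6 libraries (x axis), outside genes (green, n = 1084) and inside genes (grey, n = 12053). Single-library regions are 72.3% outside and 68.6% inside genes, and the share called in 4, 5 or 6 libraries is lower outside.

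The strongest recurrent regions lay on chromosome 17. The region chr17:13585502-13591702 was also the longest, at 6201 bp, and lay 33436 bp from its nearest gene, the long non-coding RNA gene 2700054A10Rik. Its best peak had a fold enrichment of 72.1, 68.8 and 85.6 in controls 1, 2 and 3, and of 19.3, 12.8 and 25.5 in KO 1, 2 and 3. The control values were all above the KO values. The nearby region chr17:13654457-13655318, 1183 bp from the long non-coding RNA gene Gm41530, had 76.6, 39.7 and 49.6 in the controls and 17.6, 16.0 and 17.7 in the KO libraries. In 3 controls at most 0.42% of the list had a higher fold than either region, and in the KO lists 0.94% to 9.36% did. Fold enrichment rests on each library's own depth and background, so these values describe a peak's place in its list. They are not a test of genotype. Of the 23 regions called in all 6 libraries, 4 had every KO value below every control value and 2 had the opposite order. With only 20 assignments of 3 against 3 libraries, either order can arise in some regions without an effect of genotype. No such count is given for regions inside genes, so whether these counts are high or low for these lists is unknown. They describe the 23 regions, and an effect of genotype on the order was not tested.

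Protein-coding genes were nearest to 9 of the 23. Near Ap1m1, a subunit of the clathrin adaptor AP-1, chr8:72234400-72235382 had fold enrichments of 22.2, 24.7 and 20.4 in the controls and 34.1, 13.9 and 28.8 in the KO libraries. Its neighbour chr8:72225069-72226142 lay 278 bp past the 3′ end of Fam32a and had 26.2, 18.5 and 24.7 in the controls and 21.3, 14.1 and 31.5 in the KO libraries. In both regions the genotypes overlapped. Past the 3′ end of Ksr2, a scaffold kinase of the Ras pathway, by 6617 bp, chr5:117774061-117774944 ranged from 6.41 in control 1 to 29.9 in KO 2. Past the 3′ end of Amer3, which codes for a membrane partner of the APC protein, 2 regions at 12047 and 14598 bp ranged from 5.76 to 18.02 and from 4.66 to 18.1, lowest in control 1 in both.

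Some of these regions had members of repeated gene families as their nearest genes. Of the 23, 7 were on chromosome 8, and those at chr8:20851396-20852410, chr8:20859659-20860630 and chr8:19784681-19785065 had the pseudogenes Gm20797, Gm20945 and Gm10060 nearest. The regions lay 9782, 9046 and 1 bp from these pseudogenes, with median fold enrichments of 16.7, 15.5 and 12.8. The first 2 had the beta-defensin gene Defb33 as the nearest protein-coding gene, 40535 and 32381 bp away. How reads that match several copies were placed is not given in the sources used here. The region chr13:68296999-68297216 was the farthest from any gene among the 23, 56219 bp from Gm8016, with 12.4, 17.8 and 15.3 in the controls and 13.2, 17.99 and 23.2 in the KO libraries. Next in distance beyond the long chromosome 17 region were chr7:125183166-125183892 (26824 bp from Gm30501, 8.13 to 16.3), the farther Amer3 region, and chr8:20122210-20122733 (13880 bp from Gm21811, 3.73 in KO 2 to 19.3 in control 1).

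**Figure D4:**
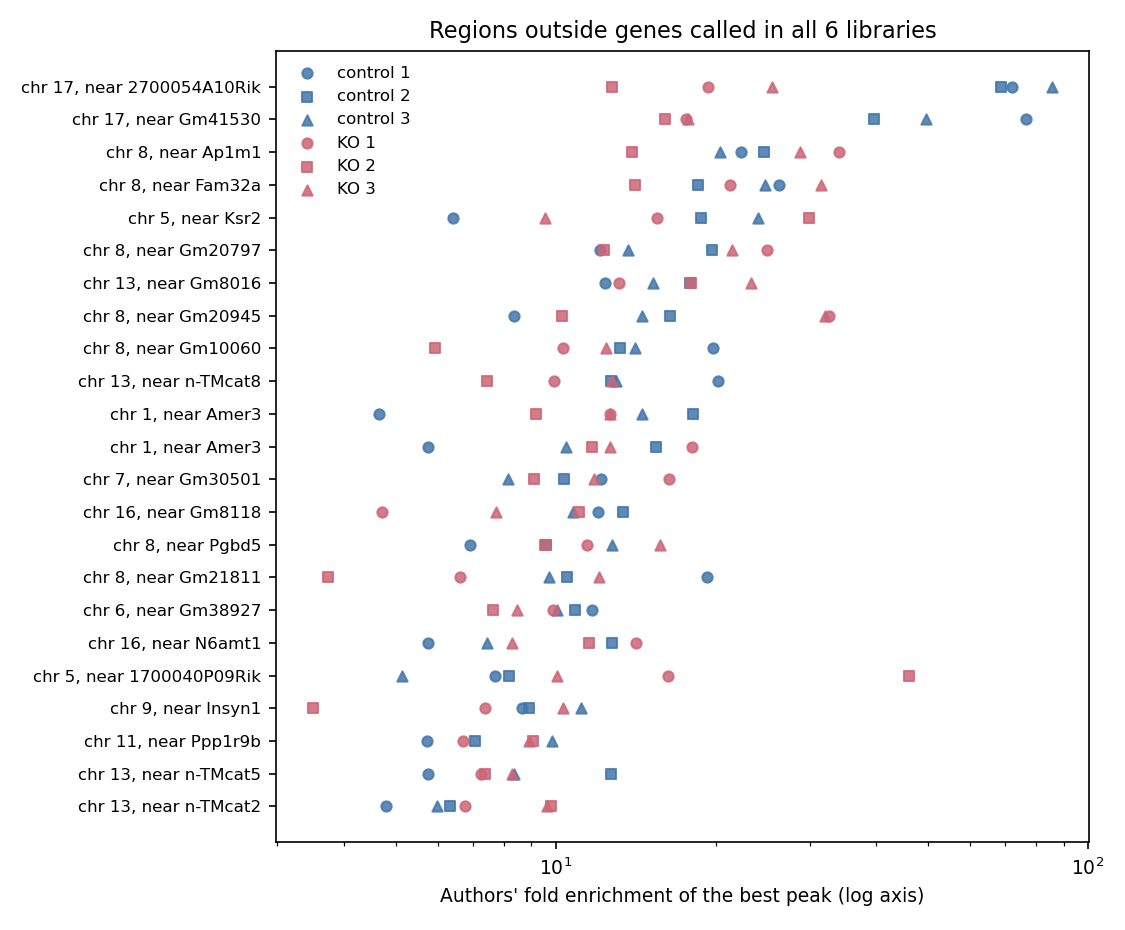
Authors' fold enrichment of the best peak in each library (log x axis) for the 23 outside regions called in all 6 libraries, ordered by their median and labelled by nearest gene; blue control, red KO, and the marker shape gives the library number. The upper 2, on chromosome 17, have the controls at 39.7 to 85.6 and the KO libraries at 12.8 to 25.5.

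The promoters printed for genes of neurons had weaker peaks that recurred. Ppp1r9b codes for spinophilin, which anchors protein phosphatase 1 in dendritic spines, and its region chr11:94991035-94991622 had its strongest summit 28 bp before the gene. Its fold enrichment was 5.74, 7.06 and 9.85 in the controls and 6.68, 9.05 and 8.90 in the KO libraries, and the genotypes overlapped. Insyn1, whose product belongs to the scaffold of inhibitory synapses, had 8.63, 8.90 and 11.2 in the controls and 7.36, 3.49 and 10.3 in the KO libraries at chr9:58488340-58488916, 116 bp before the gene. At Pgbd5, a gene derived from a piggyBac transposon, chr8:124433725-124434190 had 6.90, 9.57 and 12.8 in the controls and 11.5, 9.54 and 15.7 in the KO libraries, 117 bp before the gene span used here. The printed Pgbd5 window holds an ATG before the capitals, and its reading frame runs through them to the window's end without a stop codon. Whether that stretch is coding sequence missing from the gene span was not tested. At each of these 3 promoters, peaks with an outside summit overlapped the gene span. Called in 5 libraries were regions 169 bp before Fbxw7, which codes for a ubiquitin ligase subunit (9.41 to 16.7), 317 bp before Phf10, a chromatin remodelling subunit (9.33 to 18.8), 553 bp before Slc16a1, a lactate transporter (4.66 to 14.3), and 648 bp before Ep300, a histone acetyltransferase (5.76 to 17.7).

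Of all 47038 genes of the table, 587 (1.25%) had an outside region within 5 kb. Of 20 medium spiny neuron genes 3 did (15%), and 1 of the 34 synapse genes listed there did (2.94%), counts that are given as a description. Rasd2 codes for Rhes, a small GTPase enriched in striatal neurons, and its region chr8:75213283-75214028 was called in control 2 (4.00), control 3 (4.07), KO 1 (6.48) and KO 3 (4.53). Those folds were low in their lists, where 60.8% to 93.6% of peaks had higher ones. Rgs9, a regulator of G protein signalling in striatal neurons, had a region 4507 bp past its 3′ end in KO 1 (8.62), KO 2 (13.2) and KO 3 (7.82) and in no control, although the long non-coding RNA gene Gm39440 was nearer. Rarb, a retinoic acid receptor, had 2 regions in KO 2 alone (13.3 and 10.6). Homer3, a postsynaptic scaffold, had 1 in KO 2 (4.73), and Rps24 was the 1 ribosomal protein gene of 83 with a region, in KO 3 (6.62). Histone genes had 2 regions within 5 kb, near H2bc13 and H1f10, and small nuclear RNA genes had 4, of which the 1 at Gm25890 was called in 4 libraries. Genes of ribosomal RNA had none by biotype.

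Transfer RNA genes carried the densest set. Within 200 bp of a tRNA gene lay 22 regions (2.03% of all outside regions), while such positions make up 0.00778% of the bases outside genes. They were near 22 of the 391 tRNA genes of these chromosomes, and 11 of them were on chromosome 1 and 7 on chromosome 13. Their summits were 2 to 125 bp from the tRNA gene (median 34.5), and 21 of the 22 regions held a peak that overlapped a gene. The regions were 163 to 212 bp long and the tRNA genes had a median of 73 bp, and the fragment length that the caller modelled was 163 to 177 bp, so a summit in the tRNA and one beside it cannot be told apart at this resolution. Recurrence was higher than elsewhere, with 11 of 22 (50%) called in at least 3 libraries against 149 of the other 1062 (14.0%). Among regions under 200 bp from a gene but from no tRNA gene, 12 of 58 (20.7%) were. These calls include peaks with the summit inside a gene. At n-TMcat2, n-TMcat7 and n-TGtcc4, which are among the 11, the summit lay outside genes in 1 library.

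Methionine tRNA genes, named n-TMcat after the amino acid letter and the anticodon, were nearest to 5 of the 22 regions, and glycine genes to 6. All 3 tRNA regions called in 6 libraries were at methionine genes on chromosome 13. At n-TMcat8 (chr13:21974895-21975097) the fold enrichment was 20.2, 12.7 and 12.98 in the controls and 9.93, 7.43 and 12.8 in the KO libraries. At n-TMcat5 (chr13:23500093-23500288) it was 5.76, 12.7 and 8.34 against 7.22, 7.36 and 8.27, and at n-TMcat2 (chr13:21906981-21907150) 4.80, 6.34 and 5.99 against 6.76, 9.81 and 9.63. The genotypes overlapped at n-TMcat8 and n-TMcat5, and at n-TMcat2 every KO value was above every control value. At n-TMcat2 the summit lay outside genes in 1 library and inside a gene in the other 5.

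Some tRNA regions were called in 1 genotype. The region at n-TMcat7 was called in all 3 controls (18.5, 9.55 and 9.82) and in no KO library, as were those at the aspartate genes n-TDgtc6 (6.72, 7.25 and 9.27) and n-TDgtc4 (6.72, 6.34 and 5.56). The region at the glycine gene n-TGtcc4 was called in KO 1 (9.01), KO 2 (9.17) and KO 3 (8.03) and in no control. At n-TMcat7 and at n-TGtcc4 the summit lay outside genes in 1 library and inside a gene in the others that called the region. Over the 22, 6 were called in controls alone and 7 in KO libraries alone. Over all 1084 outside regions these classes held 251 (23.2%) and 682 (62.9%). The number of peaks near tRNA genes was 7, 10 and 10 in the controls and 13, 4 and 7 in the KO libraries. The groups overlapped, with KO 1 highest and KO 2 lowest (exact permutation p = 1, two-sided). Peaks with the summit inside a tRNA gene numbered 6, 4 and 3 in the controls and 3, 5 and 7 in the KO libraries, and the groups overlapped there too. Near-identical tRNA copies share reads, so which copy carried a peak is uncertain.

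**Figure D5:**
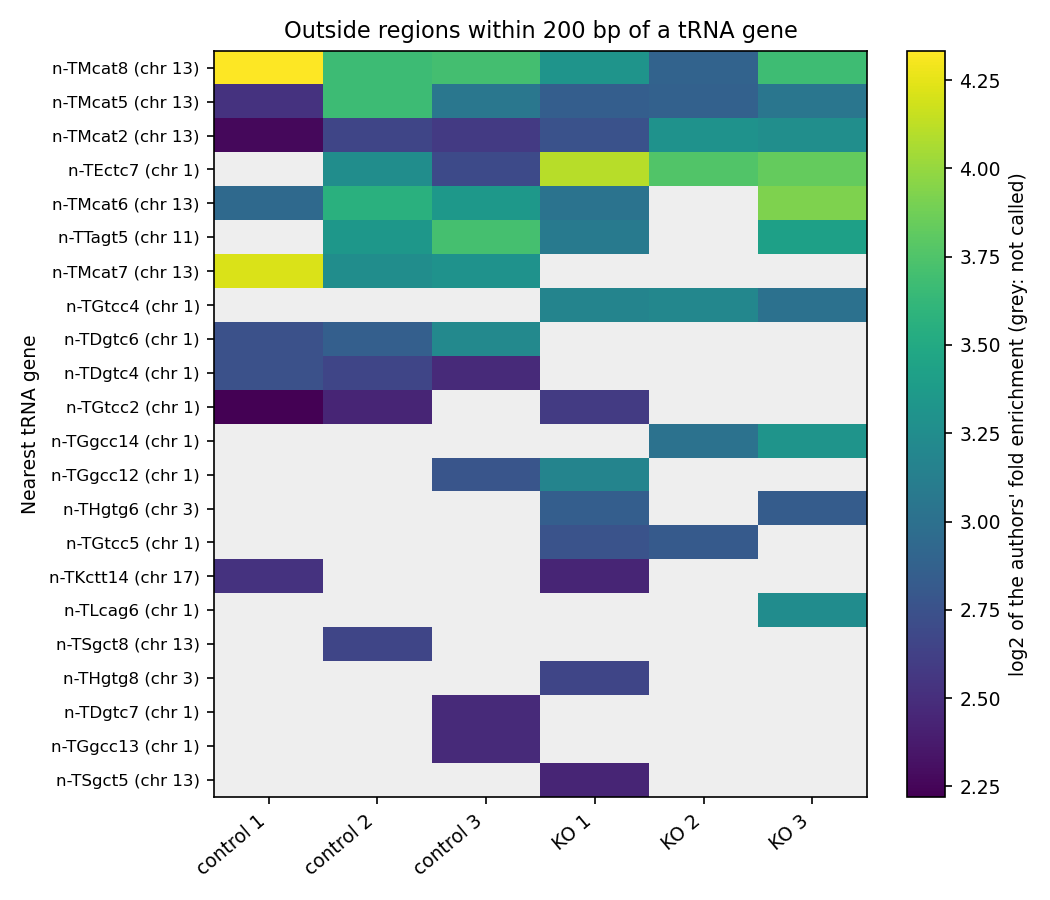
Outside regions within 200 bp of a tRNA gene (rows, by nearest tRNA gene) in each library (columns), coloured by log2 of the authors' fold enrichment, grey where not called. Only the upper 3, all at methionine tRNA genes of chromosome 13, are filled in all 6 libraries.

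Among the regions found in every KO library but in no control, the strongest was chr13:23223706-23224811, 4228 bp from the vomeronasal receptor pseudogene Vmn1r-ps133, with fold enrichments of 29.4, 13.04 and 40.4 in KO 1, 2 and 3. A second region of that receptor cluster, chr13:22096074-22096427 near Vmn1r-ps94, had 23.3, 9.45 and 18.8. Between A530013C23Rik and Cebpb, a transcription factor gene, chr2:167707300-167708063 had 13.3, 22.9 and 18.1. The KO region nearest to a gene start among the 10 strongest lay 230 bp before Isg20, which codes for an RNA exonuclease induced by interferon, with 11.3, 11.4 and 6.27. The other 6 lay near Gm40031 (median 18.96), St8sia5, a sialyltransferase gene (16.1), D9Wsu149 (12.0), AY761185 (11.5), Gm7423 (10.8) and Gm40237 (10.7). In these 10, KO 2, the deepest library, had the lowest of the 3 values in 5.

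In the reverse class, found in the 3 controls alone, chr15:86194669-86195166 near Gm15569 had fold enrichments of 179.5 in control 1, 16.7 in control 2 and 21.7 in control 3. The value in control 1 was the highest of any outside peak. Duplicate tags were kept in that library alone, and their part in the value was not tested. Before Nova2, a splicing regulator of neurons, by 268 bp, chr7:18925477-18925732 had 8.63, 20.2 and 10.8. The region chr6:44792811-44793192 lay 267027 bp before Cntnap2, a neurexin family gene, and had 30.9, 19.9 and 6.56. Others of the 10 strongest, n-TMcat7 included, had medians from 9.72 near Gm40665 to 20.3 near LOC115490388, with Gm8797 (12.4), Gm28590 (11.2) and Gm46033 (9.97) between. Control 1 had the highest of the 3 values at each of the 10 except Nova2.

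Outside regions also came in runs. Chained at gaps of up to 10 kb, the 1084 regions formed 924 stretches, 122 of which held more than 1 region. The largest held 14 regions over 30343 bp at chr6:47747801-47778143, near Gm52861, Gm52862 and Rny3, a gene of the small Y RNAs bound by the Ro60 protein. Its regions were called most in KO 2 (12) and control 2 (10) and least in control 1 (1), and fold enrichment there ran from 3.82 to 18.6. The tRNA cluster chr1:171066003-171081938 followed with 9 regions near 9 tRNA genes. Beside Ube3a, the imprinted ubiquitin ligase gene, 4 regions at chr7:59193691-59210772 lay 18133 to 34980 bp away, and the most recurrent was called in 5 libraries. Stmn4 and Epha3 were the nearest gene to 4 regions each, 8554 to 21476 bp and 81623 to 83087 bp away. All were called in KO 2, with 1 of each set also called in KO 1 and in control 3 respectively.

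A stretch outside the naming rule, singled out after its values were seen, was chr17:39843815-39846347, 1202 to 2478 bp from Rn18s-rs5, a pseudogene of the 18S ribosomal RNA. Its 3 regions were called in 1, 3 and 3 cases in controls 1, 2 and 3 and in none in the KO libraries, with fold enrichments of 1.81 to 7.54. One of them, 39845001 to 39846347, was among the 5 longest outside regions. The others of that set were the chromosome 17 region above, chr15:88575182-88576861 near Zdhhc25 (7.25 to 19.8 in 4 libraries), chr9:15134492-15135760 near Hephl1 (12.1 in KO 2 alone), and a region 80038 bp from Gm32022 called in the 3 KO libraries (8.26, 13.5 and 6.76). Regions had a median length of 193 bp, and 9 of 1084 were longer than 1 kb.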

How the data were processed

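m1A pull-down and input RNA of 3 control and 3 KO libraries was sequenced. Listed in the submitters' processing notes are the build GRCm38 and the tools MACS2 2.2.6, HISAT2 2.1.0 and cutadapt 2.8. Each pull-down was called with its input as background and a q-value of 0.01 as the limit, per the file headers. The deposited columns used here are the authors' pileup (a signal of tag coverage), fold enrichment (a ratio to local background) and −log10 of the p-value and q-value. They describe a peak within its own list.

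Summits were placed against 47038 gene spans of RefSeq GRCm38.p6 on chromosomes 1 to 19. That table gives no strand, so strand came from RefSeq promoters. A gene absent from the table makes its peaks count as outside. A region was called in a library when any of its peaks overlapped it, summits inside genes included. Library values were compared by exact permutation over 20 assignments, and classes within libraries by exact sign flips (64). No count model or interval applies to peak lists. The placing, merging and tests were checked on simulated peaks (Python 3.11.15, pandas 2.3.3, numpy 2.4.6).

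Named regions were the 12 (all 6 libraries) or 10 (1 genotype) with the highest median fold, the 5 longest, the 5 largest stretches, the 5 farthest of those called in all 6, and regions within 5 kb of listed genes. Regions at printed promoters, at tRNA genes, at miRNA genes and before protein-coding genes were added after their values were seen. Members and lists were chosen with earlier results of these data known. Alternatives were the peak threshold, equal list lengths, overlap, distance, libraries left out and the replicate block. Peak sequences and exons were not analysed here, and 1 region that the naming rule selects is not reported here.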

Additional observations from a re-analysis of the deposited data

Results flagged for a closer look

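Peaks on unplaced scaffolds lie outside the 19 chromosomes compared. KO 2 had 9 such peaks, against 2, 3 and 1 in controls 1, 2 and 3, and 1 each in KO 1 and KO 3. KO 2 also had the most tags and the longest list.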

How the results depend on the processing

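The KO minus control differences kept their direction under each alternative tried, but no p could pass 0.05 with so few libraries, and their sizes moved. A change of scale did turn the difference in number. Per 100000 tags used, KO minus control was −5.88, with control 1 highest. The difference of 196 peaks was 48.3 with lists of equal length and 88.5 to 271 with 1 library left out (88.5 without KO 2), and that of 2.49 points in the share was 1.66 with equal lists and 1.72 to 3.52 with 1 library left out. The 5 kb difference of −7.61 points was −4.47 for peaks wholly outside genes, and −4.35 to −10.3 with 1 library left out (−4.35 without control 3). It was −5.29 with lists of equal length and −4.48 at −log10 q of at least 5, and the groups overlapped under both. The outside minus inside difference in median fold was 0.659 (exact sign-flip permutation p = 0.03125) for peaks with −log10 q of at least 5, and −0.022 to 0.31 with 1 library left out. The difference in sharing was 0.34 points at fold enrichment of at least 4, and that in length 1.92 bp with lists of equal length. The class of every KO library and no control numbered 18 with lists of equal length, 34 to 77 with 1 library left out, and 78 without control 1 and KO 2. Without both, the reverse class held 33 and the regions of all libraries 45, against 23 to 36 with 1 library left out. Leaving out a library also asks for fewer calls. Counting only summits outside genes as calls, chosen after seeing the data, gave 32, 17 and 19, and leaving out peaks near tRNA genes, also chosen then, kept every direction. Deviations of same-numbered libraries correlated at 0.0094, 0.015 and −0.12, and those of differently numbered libraries at −0.088 to 0.12. These values cannot settle whether the library numbers pair the samples. With the replicate block the 3 KO minus control differences had an exact sign-flip permutation p of 0.25, the smallest that 3 pairs allow. Depth limits every missing call.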
